A study of Mus musculus with 5 samples.

Results

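The levels of 10 transcripts were analyzed in bone marrow hematopoietic stem cells (HSCs) of wild-type mice and of mice bred to lack embryonic macrophages. The genes encode FoxO transcription factors (Foxo1 and Foxo3), the stress-responsive factor NRF2 (Nfe2l2) with its inhibitor KEAP1 (Keap1), antioxidant enzymes (Sod1, Sod2, Cat, Gpx1 and Prdx1) and a thioredoxin inhibitor (Txnip). They were chosen by name as factors and enzymes that protect quiescent HSCs, and the rule for members uses no measured value, although earlier results of these data were known when the genes were proposed. Each name matched a single row among the 55335 genes of the table. HSCs were lineage-negative Kit+ Sca-1+ cells that carry CD150 and lack CD48, sorted from bone marrow at 3 weeks of age, and each library was made from a pool of 80 to 90 cells. The 3 control libraries are labelled wild-type. The other 2 are labelled RankCre-ki and come from mice with Cre knocked into 1 copy of Rank, a floxed copy of Csf1r and a null copy of Csf1r. Both groups carry the strain label C57BL/6J, although the study kept the null Csf1r allele on C3H/HeJ. According to the study, Rank-cre recombines in embryonic macrophages and not in other immune cells. Whether the controls carry any of these alleles is not given in the sources used here. Per its label, wild-type replicate 1 is male, while 4 libraries are labelled female, but Y-linked transcripts were as high in RankCre-ki replicate 2 (2826 TPM in sum) as in that control (2220 TPM), against 144 to 242 TPM in the other 3 libraries. The label of RankCre-ki replicate 2 thus goes against its transcripts, and the main differences are also given without it. The labels do not state whether a pool holds cells of a single mouse, and the p-values below measure only the spread between libraries. Fewer transcripts per cell and a different mix of cells cannot be told apart in bulk libraries.

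Quiescent HSCs keep reactive oxygen species low. FoxO factors act in the nucleus when PI3K-AKT signaling is weak, and they drive genes for superoxide and peroxide detoxification and for cell cycle arrest. NRF2 is held in the cytoplasm by KEAP1, an adaptor that hands it to a CUL3 ubiquitin ligase for degradation. Oxidation of KEAP1 releases NRF2, which then binds antioxidant response elements together with small MAF proteins. Superoxide dismutases turn superoxide into hydrogen peroxide, which catalase, glutathione peroxidases and peroxiredoxins remove. TXNIP binds reduced thioredoxin and so blocks the electron supply of peroxiredoxins.

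The promoters are shown for the members that hold a core binding sequence of NRF2 or FoxO, because these factors and their candidate targets are compared below. Windows of 300 bases (250 before and 50 after the RefSeq start, build GRCm38.p6) were available for all 10 members. Capitals mark the match, which reads 5′ to 3′ along the strand of the gene. The stretches lie at chr2:75704814-75704913 (minus strand), chr3:96557789-96557888 (plus), chr4:116685420-116685519 (plus) and chr16:90220660-90220759 (plus).
Nfe2l2: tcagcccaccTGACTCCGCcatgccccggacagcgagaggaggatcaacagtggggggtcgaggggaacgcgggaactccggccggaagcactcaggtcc
Txnip: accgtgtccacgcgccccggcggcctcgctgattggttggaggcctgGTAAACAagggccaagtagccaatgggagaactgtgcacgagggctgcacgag
Prdx1: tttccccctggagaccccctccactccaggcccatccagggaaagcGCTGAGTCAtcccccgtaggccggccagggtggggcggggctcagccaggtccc
Sod1: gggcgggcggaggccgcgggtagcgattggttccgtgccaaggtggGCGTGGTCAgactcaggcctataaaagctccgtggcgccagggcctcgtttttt
The antioxidant response element core TGACNNNGC was searched on both strands and was present in 3 of the 10 member windows, those of Nfe2l2, Prdx1 and Sod1. In Prdx1 and Sod1 it is on the opposite strand. Of all 32851 windows, 12.4% hold this core. The FoxO core GTAAACA was present in the Txnip window only, 121 to 115 bases before the start, against 3.65% of all windows. The E-box CACGTG was in none of the 10 and in 7.15% of all windows. None of these matches overlap each other. The member windows were rich in G and C, with a median of 63.2% against 52.7% for all windows and a median of 20 against 7 CpG dinucleotides. A match is a description of letters and was not tested as a binding site.

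TPM (transcripts per 1e+06, a share of the library that is corrected for gene length) allows levels of different genes to be compared. The enzymes were abundant and the FoxO factors were scarce. Averaged over the 5 libraries, Gpx1 was at 1121 TPM, Prdx1 at 635 TPM, Txnip at 371 TPM, Sod1 at 202 TPM, Sod2 at 120 TPM and Cat at 96.0 TPM. The regulators followed with Nfe2l2 at 40.8 TPM, Keap1 at 9.06 TPM, Foxo3 at 8.43 TPM and Foxo1 at 1.91 TPM. Neighbors in this order kept their order in all 5 libraries for Gpx1 over Prdx1, Txnip over Sod1, Cat over Nfe2l2 and Nfe2l2 over Keap1. Sod1 exceeded Sod2, Sod2 exceeded Cat and Foxo3 exceeded Foxo1 in 4 of 5 libraries. The pairs Prdx1 with Txnip and Keap1 with Foxo3 held in 3 of 5 libraries, so that their order is not beyond the spread. Together the members made up 0.218% to 0.336% of all TPM.

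**Figure D1:**
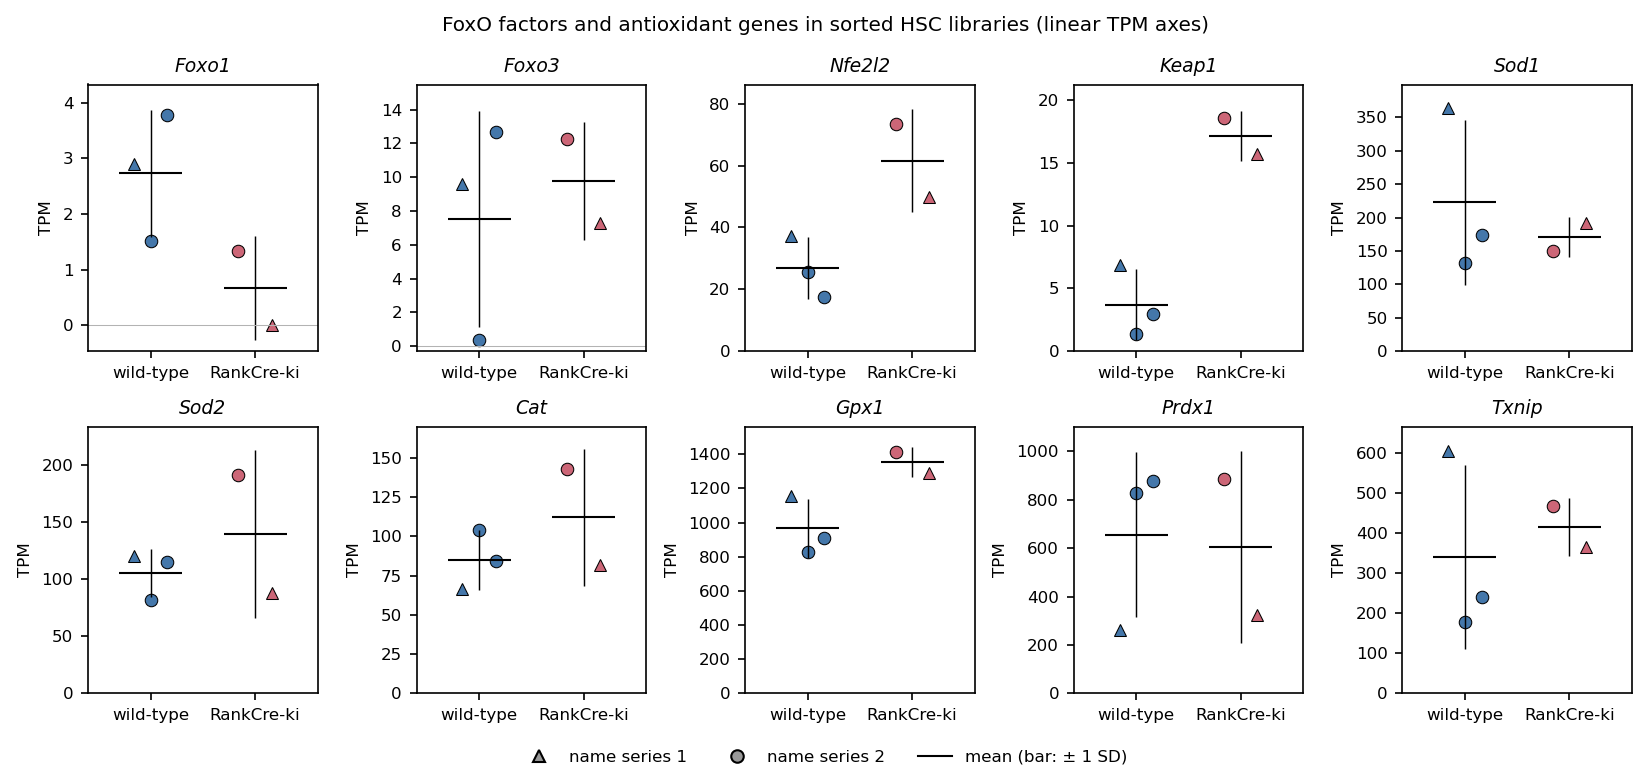
TPM (linear axes that differ between panels) of the 10 members in 3 wild-type and 2 RankCre-ki libraries, with symbols for the name series of a library, horizontal lines for group means and bars for ± 1 SD. Nfe2l2, Keap1 and Gpx1 lie higher in both RankCre-ki libraries than in any wild-type library, Foxo1 lies lower, and the groups overlap for the other 6 genes.

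The comparison of the groups asks which of these transcripts differ when HSCs develop without embryonic macrophages. Keap1, Nfe2l2 and Gpx1 were higher in both RankCre-ki libraries than in all wild-type libraries, which is 3 of 10 members against 18.8% of all 13981 tested genes. Foxo1 was lower in both, 1 of 10 members against 3.71% of all tested genes. All 10 members had at least 1 TPM in at least 2 libraries and were tested. None was called by limma at the threshold of the study (adjusted p ≤ 0.1 with a log2 fold change beyond 2 in size), as 0% of all genes were, and their adjusted p started at 0.881. Before adjustment, p was under 0.05 for 0 members, against 6.34% of all genes higher and 0.529% lower in RankCre-ki. With another test, DESeq2 on fragment counts, the study reported genes past its threshold in both directions. The fold changes below are differences of log2(TPM + 1) with their standard error (SE). The reference for them is the median of all tested genes, 0.52, as 72.3% of genes had a positive difference. The median difference of the members was 0.42, and 3 of 10 lay above that of all genes.

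Keap1 (ENSMUSG00000003308, chromosome 9, 21229730 to 21239361, GRCm38) encodes the adaptor that marks NRF2 for degradation. It was at 6.80, 1.32 and 2.89 TPM in controls 1 to 3 against 18.6 and 15.7 TPM in RankCre-ki 1 and 2. The group means were 3.67 ± 2.82 TPM (SD, n = 3) and 17.1 ± 2.01 TPM (SD, n = 2), so that both RankCre-ki libraries stood well above the highest control. Its log2 difference was 2.13 ± 1.22 (SE), the largest of the members and above 90.2% of the tested genes, with a limma p of 0.120 (adjusted p of 0.881). An antisense gene, Gm16754, covers 10.9% of the Keap1 exon bases. It was at 6.74, 0.0823 and 0.0698 TPM in controls versus 0.465 and 9.66 TPM in RankCre-ki HSCs, and whether strand was used in making the TPM is not stated. High Gm16754 values were those of wild-type replicate 1 and RankCre-ki replicate 2, so they do not follow the groups.

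Nfe2l2 (ENSMUSG00000015839, chromosome 2, 75675513 to 75704641), which encodes NRF2 and has an antioxidant response element core in its own promoter window, measured 37.3, 25.8 and 17.7 TPM in the controls. Both RankCre-ki libraries were higher, with 73.3 and 49.9 TPM. The means were 26.9 ± 9.87 TPM (SD, n = 3) and 61.6 ± 16.6 TPM (SD, n = 2). The difference on the log2 scale was 1.20 ± 0.67 (SE), with a limma p of 0.111 (adjusted p of 0.881). The factor and its inhibitor thus lay above all controls together, but not in proportion. The ratio of Keap1 to Nfe2l2 within a library, which multiplying a library by a factor does not alter and which was chosen after the values were seen, was 0.182, 0.0512 and 0.163 in the wild-type libraries. It was 0.253 and 0.315 in the RankCre-ki libraries, above all controls. Quantile normalization does alter it, and brought the log2 differences of Keap1 and Nfe2l2 closer together, at 1.39 and 0.99.

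Foxo1 (ENSMUSG00000044167, chromosome 3, 52268336 to 52353221) encodes a FoxO factor with roles in metabolism and lymphoid development. Foxo1 was at 2.90, 1.52 and 3.79 TPM in controls versus 1.34 and 0.0121 TPM in RankCre-ki HSCs. Both RankCre-ki values lay below all controls, but RankCre-ki replicate 1 was only slightly below wild-type replicate 2. The log2 difference was -1.23 ± 0.94 (SE), lower than that of all but 3.36% of genes, with a limma p of 0.225 (adjusted p of 0.916). Foxo3 (ENSMUSG00000048756, chromosome 10, 42181841 to 42276755) encodes the FoxO factor best known for maintaining the HSC pool. It was at 9.60, 0.359 and 12.6 TPM in controls versus 12.3 and 7.31 TPM in RankCre-ki HSCs. The groups overlapped, and wild-type replicate 2 was the only library under 5 TPM. The log2 difference was 0.85 ± 1.44 (SE) with all libraries and -0.20 without wild-type replicate 2. Among the tested genes, 2.50% had this pattern, under 1 TPM in that library and 5 TPM or more in the other 4. Foxo4 was under 0.1 TPM in all libraries, and Foxo6 was listed at 0 in all but wild-type replicate 3, at 2.50 TPM.

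Gpx1 (ENSMUSG00000063856, chromosome 9, 108338903 to 108340343) encodes the cytosolic glutathione peroxidase, a selenoprotein, and was the most abundant member. Levels were 1158, 828 and 911 TPM in controls, compared with 1416 and 1292 TPM in RankCre-ki HSCs. The means were 966 ± 172 TPM (SD, n = 3) and 1354 ± 88.2 TPM (SD, n = 2), and relative to the mean no other member varied less among the controls. The groups did not overlap, but the log2 difference of 0.50 ± 0.36 (SE) was close to the all-gene median, and its limma p was 0.204 (adjusted p of 0.908). After median-ratio scaling the groups overlapped and the difference was -0.01.

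Prdx1 (ENSMUSG00000028691, chromosome 4, 116685544 to 116700822), a cytosolic peroxiredoxin that reduces peroxides with electrons from thioredoxin, separated by the names of the libraries and not by genotype. It was at 262, 828 and 876 TPM in controls versus 884 and 324 TPM in RankCre-ki HSCs. The 2 low values belong to wild-type replicate 1 and RankCre-ki replicate 2, whose names form name series 1, while the other 3 libraries form name series 2. The study's methods name different tagmentation kits for sets of the same composition, but the labels do not say which library had which kit, so the match is by composition only. The same 2 libraries carry the high Y-linked transcripts, so that name series and sex by transcripts cannot be separated here. The mean of Prdx1 was 293 ± 43.6 TPM (SD, n = 2) in series 1 and 863 ± 30.6 TPM (SD, n = 3) in series 2. The log2 difference between the genotypes was -0.10 ± 0.66 (SE) over all libraries and 0.30 and 0.05 within series 1 and series 2.

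Cat (ENSMUSG00000027187, chromosome 2, 103453849 to 103485160) encodes catalase, the peroxisomal enzyme that splits hydrogen peroxide. It was at 66.3, 104 and 84.6 TPM in controls versus 143 and 81.5 TPM in RankCre-ki HSCs. The 2 lowest values were again those of name series 1. The genotypes overlapped, with a log2 difference of 0.37 ± 0.53 (SE).

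Sod1 (ENSMUSG00000022982, chromosome 16, 90220754 to 90226329), the cytosolic copper-zinc superoxide dismutase, was at 363, 132 and 174 TPM in controls versus 150 and 192 TPM in RankCre-ki HSCs. In contrast to Prdx1 and Cat, both libraries of name series 1 lay above all of series 2. The log2 difference between the genotypes was -0.25 ± 0.54 (SE), and 0.17 without wild-type replicate 1. Sod2 (ENSMUSG00000006818, chromosome 17, 13006846 to 13040063), the mitochondrial manganese enzyme, was at 121, 81.7 and 115 TPM in controls versus 192 and 87.8 TPM in RankCre-ki HSCs. RankCre-ki replicate 1 was the highest library and RankCre-ki replicate 2 lay within the controls. The log2 difference of Sod2 was 0.31 ± 0.54 (SE). RankCre-ki replicate 1 was the only library in which Sod2 exceeded Sod1, at a ratio of 1.28, against 0.333 to 0.661 in the other 4 libraries.

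Txnip (ENSMUSG00000038393, chromosome 3, 96557957 to 96561883), which encodes an arrestin-fold protein that binds thioredoxin and limits glucose uptake, was at 604, 179 and 241 TPM in controls versus 468 and 365 TPM in RankCre-ki HSCs. Wild-type replicate 1 was the highest library and the other controls were the lowest. The log2 difference was 0.48 ± 0.57 (SE), with -0.73 within name series 1 and 1.17 within series 2. Without wild-type replicate 1 both RankCre-ki libraries lay above the controls, with a log2 difference of 0.99 and a limma p of 0.0359 (adjusted p of 0.384). Gm15441, an antisense gene over 19.4% of the Txnip exon bases, was at 0 to 15.8 TPM. Txn1, the thioredoxin that TXNIP binds, was at 350, 214 and 330 TPM in controls versus 333 and 301 TPM in RankCre-ki HSCs, and its groups overlapped.

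**Figure D2:**
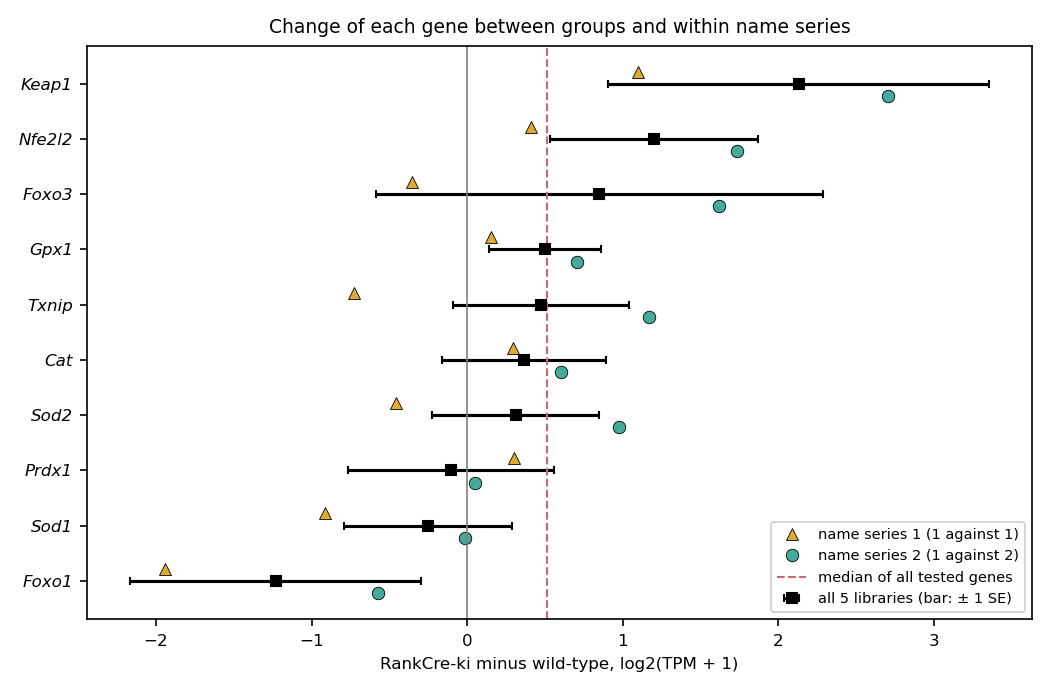
Difference between RankCre-ki and wild-type in log2(TPM + 1) for each member over all 5 libraries (squares, bars ± 1 SE) and within name series 1 (triangles, 1 library against 1) and 2 (circles, 1 against 2), with the median of all tested genes as a dashed line. Keap1 has the largest positive difference at 2.13 and Foxo1 the largest negative at -1.23, both with the same sign in both series.

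The direction within the name series was compared, as each series holds both genotypes. Keap1 differed by 1.10 in series 1 and by 2.70 in series 2, and Nfe2l2 by 0.41 and 1.73. Foxo1 differed by -1.94 and -0.57, and Gpx1 by 0.16 and 0.71. The medians of all genes were 0.53 and 0.40, so that in series 1 the differences of Nfe2l2 and Gpx1 were below that of the typical gene. For 7 of 10 members the sign was shared between the series, 5 higher and 2 lower. Foxo3, Sod2 and Txnip were lower in series 1 and higher in series 2. Series 1 was above series 2 without overlap for 1 member (Sod1) and below it for 2 (Cat and Prdx1), where 17.1% and 15.9% of all tested genes did so. With 1 library of a genotype in most of these sets, no test within a series was made.

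The changes relative to all genes were then compared between scalings, because the RankCre-ki libraries held more genes at 1 TPM or more (12801 and 16386, against 9021 to 11084 in wild-type) and a smaller share of mitochondrially encoded transcripts (10.7% and 8.21%, against 14.7% to 21.02%). The part of these measures in the differences was not tested. The median difference of all genes moved from 0.52 to 0.17 after median-ratio scaling, to -0.09 after quantile normalization and to 0.45 after rescaling over nuclear protein-coding genes. Keap1 stayed above this median by 1.62 as deposited and by 1.52, 1.47 and 1.62 under the 3 scalings, and Nfe2l2 by 0.69, 0.53, 1.08 and 0.59. Foxo1 lay below it under all 4, at -1.75, -1.63, -1.89 and -1.95. Without RankCre-ki replicate 2 the log2 differences were 2.24 for Keap1, 1.48 for Nfe2l2, 0.57 for Gpx1 and -0.63 for Foxo1. The groups of Keap1 and Foxo1 did not overlap under any of the 4 scalings, whereas those of Nfe2l2 and Gpx1 overlapped after median-ratio scaling. Sod1 and Prdx1 lay below the median of all genes under all 4. Gpx1, Txnip, Cat and Sod2 lay below it in 3 but above it after quantile normalization, and Foxo3 lay above it in 3 but below it after quantile normalization.

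**Figure D3:**
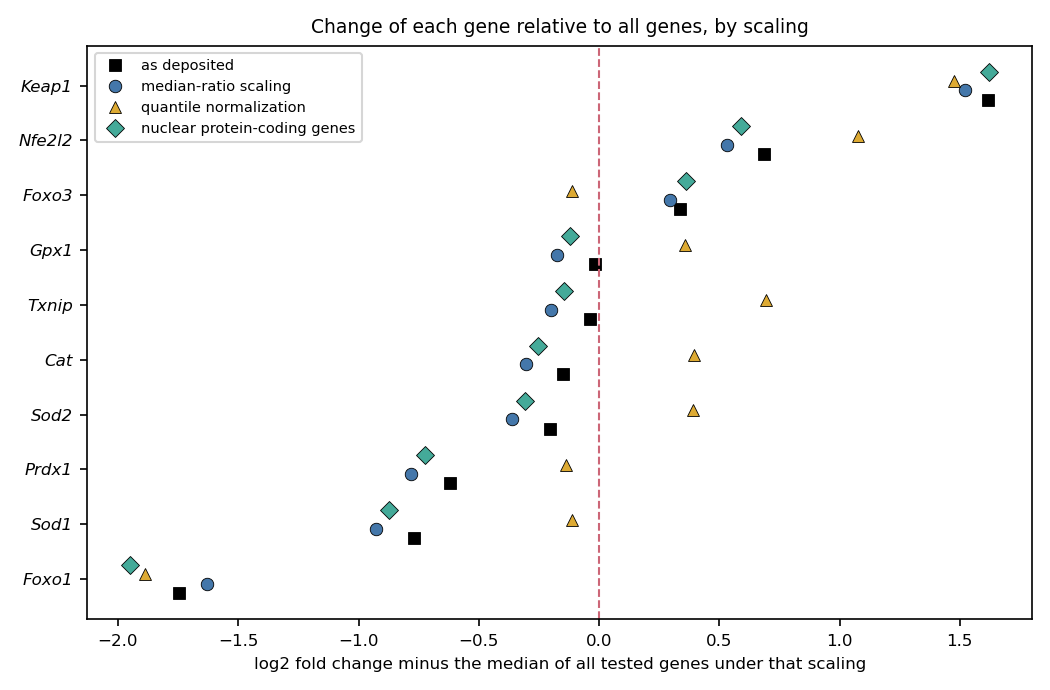
Log2 fold change of each member minus the median of all tested genes, with TPM as deposited and under 3 other scalings (a symbol each), where 0 (dashed line) is the typical gene. Keap1 and Nfe2l2 are right of the line and Foxo1, Sod1 and Prdx1 left of it under all 4, while the other 5 members change sides.

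The proteins that control NRF2 alongside KEAP1 were examined next, in a list of 12 genes that were all tested. Sqstm1, an autophagy receptor that binds KEAP1, was at 74.0, 15.4 and 118 TPM in controls versus 244 and 185 TPM in RankCre-ki HSCs. Its log2 difference was 2.02 ± 0.84 (SE), with a limma p of 0.0424 (adjusted p of 0.691). Dpp3, a peptidase that also binds KEAP1, was at 32.7, 0 and 16.4 TPM against 43.2 and 38.5 TPM, with an overlap after median-ratio scaling and quantile normalization. Of the ligase that KEAP1 recruits, the RING subunit Rbx1 was lower in RankCre-ki, at 391, 428 and 390 TPM against 299 and 230 TPM (log2 difference -0.62 ± 0.39 SE), and the scaffold Cul3 overlapped between the groups. Bach1, a repressor at antioxidant response elements, measured 1.597, 5.56 and 1.85 TPM against 1.41 and 1.21 TPM. The list had a median difference of 1.27 against 0.52 for all genes, with 1 gene at an unadjusted p under 0.05 in the upward direction and 0 in the downward direction. The excess of 0.76 over the median of all genes rested on single libraries, as it was 0.0125 without wild-type replicate 1, 0.47 without wild-type replicate 2 and 0.28 without RankCre-ki replicate 1. None was called.

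The NRF2 target and glutathione list (23 genes, 22 tested) had a median difference of 0.52, that of all genes, and 0 genes at an unadjusted p under 0.05. Relative to all genes this median ran from -0.21 with a pseudocount of 0.1 to 0.42 after quantile normalization. Both RankCre-ki libraries exceeded all controls for 8 of the 22 genes and lay below them for 0, against 18.8% and 3.71% of all tested genes. These 8 included the 4 enzymes of the pentose phosphate pathway in the list, G6pdx, Pgd, Taldo1 and Tkt. This pathway supplies NADPH, which glutathione and thioredoxin reduction consume. G6pdx, the entry enzyme, was at 19.0, 11.6 and 29.4 TPM in controls versus 37.3 and 45.0 TPM in RankCre-ki HSCs. Pgd, phosphogluconate dehydrogenase, was at 16.4, 0.501 and 16.1 TPM against 33.4 and 35.3 TPM, and the groups of G6pdx and Pgd stayed apart under all 4 scalings. Taldo1 (182, 158 and 151 against 237 and 238 TPM) overlapped after median-ratio scaling, and Tkt (42.9, 119 and 168 against 226 and 182 TPM) after that and after rescaling over nuclear protein-coding genes. Fth1, the ferritin heavy chain that stores iron, was at 1617, 1743 and 1750 TPM against 2739 and 2839 TPM, with a log2 difference of 0.71 ± 0.34 (SE) and an adjusted p of 0.794. The other 3 were Gsta4, Gstp1 and Osgin1. The count depended on scaling, with 2 genes after median-ratio scaling (12.2% of all genes), 5 after quantile normalization (11.6%) and 4 after rescaling over nuclear protein-coding genes (16.02%). Ftl1 lay below all controls under each of these. Nqo1, Hmox1, Gclc and Srxn1, commonly used readouts of NRF2, overlapped between the groups. Nqo1 was at 0, 16.9 and 18.4 TPM in controls versus 9.77 and 0.372 TPM in RankCre-ki HSCs, and the low values were those of name series 1.

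**Figure D4:**
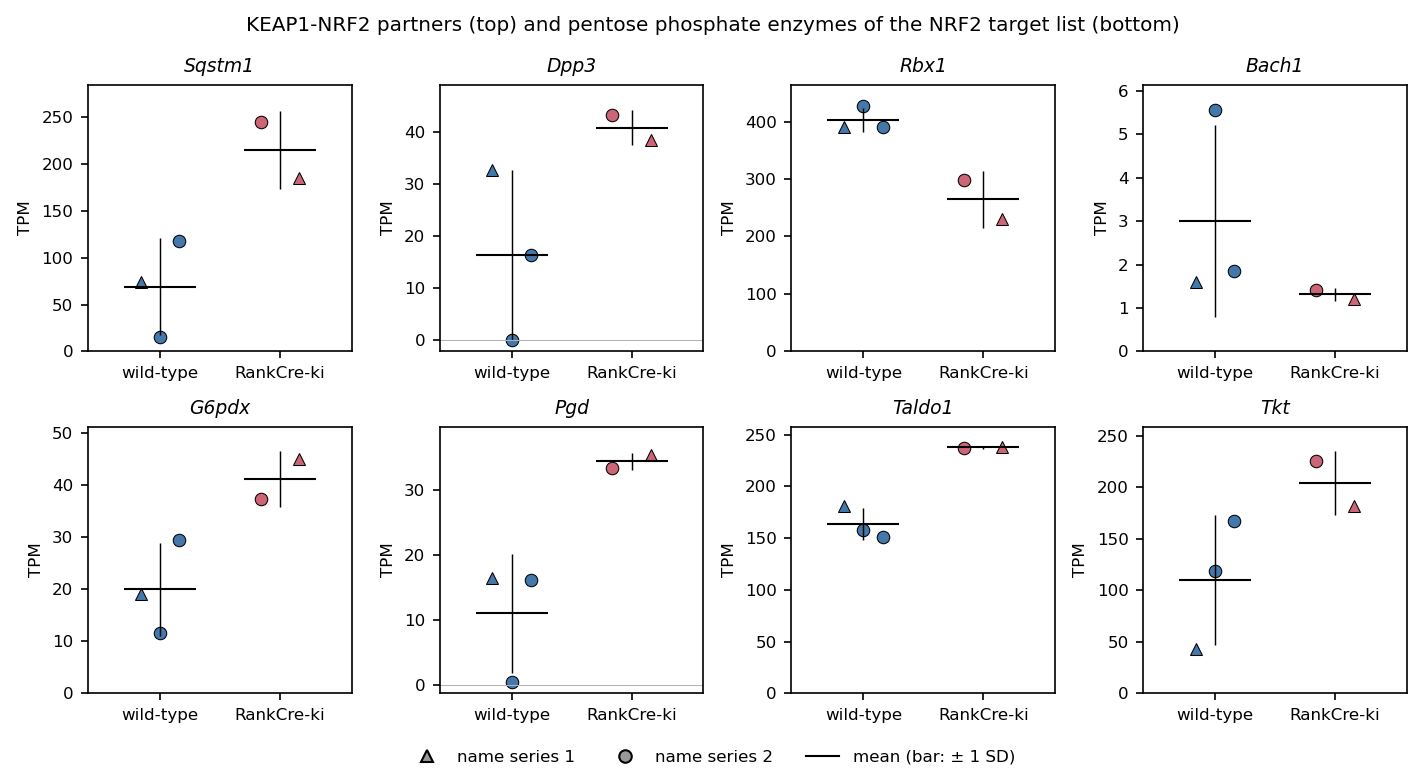
TPM (linear axes that differ between panels) of 4 partners of KEAP1 and NRF2 (top) and 4 pentose phosphate enzymes (bottom) in each library, with symbols for the name series, lines for group means and bars for ± 1 SD. Sqstm1, Dpp3 and the 4 enzymes are higher and Rbx1 and Bach1 lower in both RankCre-ki libraries than in all controls in TPM as deposited.

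Among the other superoxide and peroxide enzymes (24 genes, 21 tested), 2 had an unadjusted p under 0.05, both higher in RankCre-ki, and the median difference was 0.12. Gpx4, the glutathione peroxidase for lipid peroxides, had tight groups, at 220, 222 and 246 TPM in controls versus 449 and 408 TPM in RankCre-ki HSCs. Its log2 difference was 0.90 ± 0.38 (SE), with a limma p of 0.0479 (adjusted p of 0.721), and the groups stayed apart under all 4 scalings. Msrb1, a selenoprotein that repairs oxidized methionine, was at 0.0263, 0.0720 and 1.11 TPM against 4.38 and 9.39 TPM, with a limma p of 0.0310. Glrx2, the mitochondrial glutaredoxin, was at 143, 160 and 115 TPM against 113 and 103 TPM. Gpx7, a glutathione peroxidase of the endoplasmic reticulum, overlapped at 0, 20.6 and 0.126 TPM against 8.79 and 5.89 TPM. Prdx2, Prdx3, Prdx4, Prdx5 and Prdx6 overlapped in TPM as deposited. Prdx5 lay below the controls after median-ratio scaling and quantile normalization.

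The upstream regulators of FoxO (14 genes, 12 tested) had a median difference of 0.15, with 2 genes higher and 0 lower at an unadjusted p under 0.05. Akt2, a kinase that keeps FoxO factors out of the nucleus, was at 0.0724, 1.89 and 16.9 TPM in controls versus 42.4 and 36.2 TPM in RankCre-ki HSCs, with a limma p of 0.0438 (adjusted p of 0.698). Pik3cb, a catalytic PI3K subunit, had listed values of 0 in each control and of 1.02 and 3.66 TPM in RankCre-ki. It met the filter of 1 TPM in 2 libraries only through RankCre-ki, so it could only be tested as higher. Sirt1, a deacetylase of FoxO factors, was lower at 15.2, 25.3 and 17.7 TPM against 6.58 and 5.77 TPM (log2 difference -1.48 ± 0.95 SE, limma p of 0.156). Pdpk1, the kinase that activates AKT, was at 8.13, 7.48 and 6.96 TPM against 5.64 and 2.47 TPM.

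FoxO target genes (24 genes, 21 tested) had a median difference of 0.51, with 1 gene higher and 1 lower at an unadjusted p under 0.05. Relative to all genes this median was -0.0015, but -0.25 without wild-type replicate 1 or 3, -0.48 without RankCre-ki replicate 1 and -0.41 without RankCre-ki replicate 2. Map1lc3b, an autophagosome protein, was lower at 827, 1114 and 727 TPM in the wild-type against 426 and 334 TPM in RankCre-ki, a log2 difference of -1.21 ± 0.39 (SE) with a limma p of 0.0145 (adjusted p of 0.521). Cdkn1a, a cyclin-dependent kinase inhibitor, was at 4.79, 6.67 and 4.59 TPM against 0.275 and 0.668 TPM, a log2 difference of -2.11 ± 1.09 (SE). Sesn3, a sestrin that restrains mTOR and peroxides, was at 5.95, 4.41 and 3.06 TPM against 11.96 and 9.86 TPM. Bbc3, a pro-apoptotic BCL2 family gene, was at most 0.113 TPM in controls versus 1.19 and 2.57 TPM in RankCre-ki. Like Pik3cb, it met the filter only through the RankCre-ki libraries, where it is high. Of the 21 targets, 2 lay above the controls and 3 below (Cdkn1a, Klf4 and Map1lc3b), against 18.8% and 3.71% of all tested genes. After median-ratio scaling 2 lay above and 5 below (12.2% and 8.88% of all genes), and after quantile normalization 0 and 5 (11.6% and 11.2%).

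The list of TXNIP regulators and arrestin relatives (8 genes, 7 tested) had the highest median difference of the 8 lists, 1.81, with 1 gene at an unadjusted p under 0.05. Its excess of 1.29 over all genes was 0.82, 0.78 and 1.97 without wild-type replicates 1, 2 and 3, and 0.65 without RankCre-ki replicate 1. Arrdc2, an alpha-arrestin like TXNIP, was at 0, 2.36 and 0 TPM against 7.49 and 13.2 TPM (limma p of 0.0378, adjusted p of 0.665). Arrdc1 measured 0.789, 43.9 and 107 TPM against 122 and 159 TPM. Arrdc1 overlapped after median-ratio scaling and Arrdc2 after quantile normalization. Of the oxidative stress signaling list (11 genes, 10 tested, median 0.98), Tsc1, a brake on mTOR, was at 0.191, 0 and 1.603 TPM against 10.9 and 6.38 TPM with a limma p of 0.0356. The excess of this list over all genes was 0.46 with all 5 libraries. It was -0.0330 without RankCre-ki replicate 1, and 0.0991 and 0.74 without wild-type replicates 2 and 3. NADPH oxidase subunits (7 genes, 6 tested, median 0.32) had 1 gene in each direction at an unadjusted p under 0.05. Relative to all genes their median was -0.20, but -1.08 without RankCre-ki replicate 2 and -0.60 without wild-type replicate 3. Ncf4, a cytosolic subunit, measured 18.9, 24.0 and 16.6 TPM in controls against 2.79 and 0.0906 TPM. Rac2, the GTPase that activates the oxidase, measured 145, 115 and 177 TPM against 466 and 250 TPM. Over the 8 lists, 9 of 111 tested genes were higher and 2 lower at an unadjusted p under 0.05, and 0 were called. Of all tested genes, 6.34% were higher and 0.529% lower at that p. Among those higher, Pik3cb, Bbc3, Msrb1, Tsc1 and Arrdc2 reached 1 TPM in at most 1 control. They met the filter of 1 TPM in 2 libraries only with the RankCre-ki values.

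**Figure D5:**
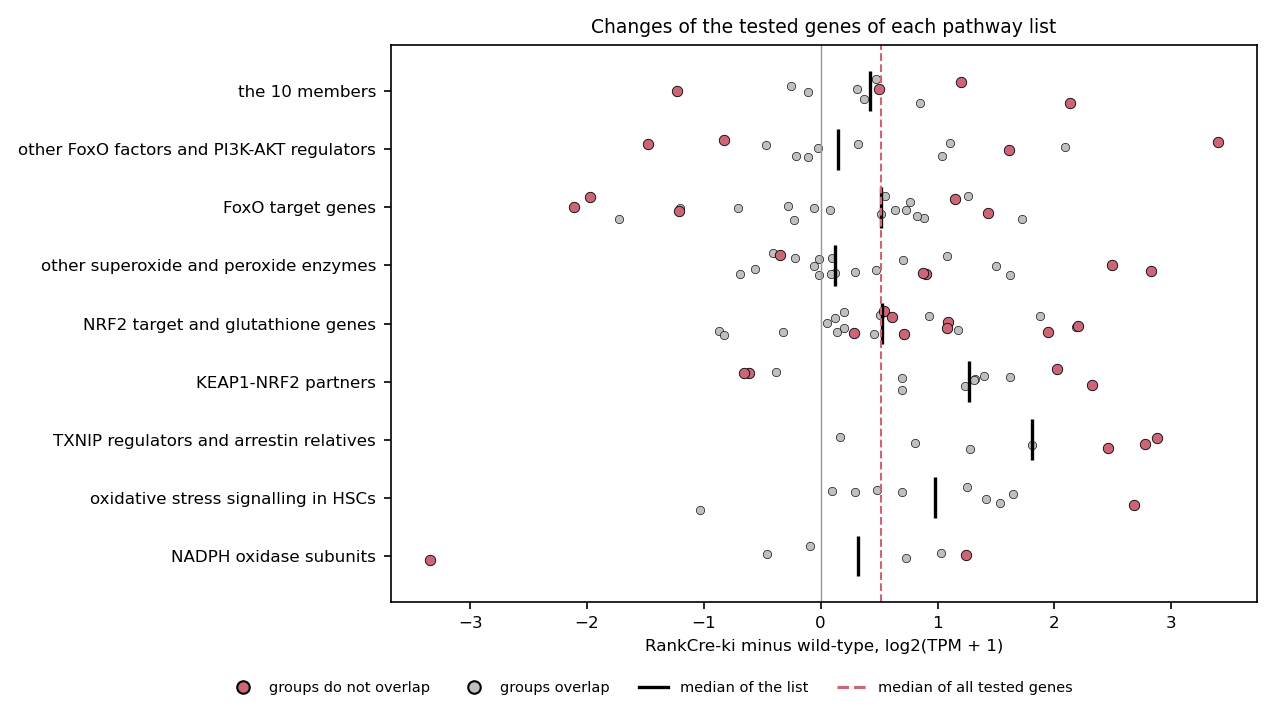
Difference between RankCre-ki and wild-type in log2(TPM + 1) for the 10 members and every tested gene of 8 pathway lists, with colored points where the groups do not overlap, a black line for the median of each list and a dashed line for the median of all tested genes (0.52). The 10 members center near the typical gene with a median of 0.42, and the lists of KEAP1-NRF2 partners and TXNIP relatives lie to the right at 1.27 and 1.81 with all 5 libraries, of which the former is 0.0125 above all genes without wild-type replicate 1.

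Marker transcripts of HSCs and of cells that the sort should remove were summed per library. Of 12 HSC markers, 11 or 12 were at 1 TPM or more in each library. Markers of erythroid cells, which are rich in Gpx1, Cat and Prdx2, summed to 1067 to 1901 TPM in controls and 2061 to 2974 TPM in RankCre-ki HSCs. The largest part of this sum in each library was Car2, which overlapped between the groups. Car2 was at 788, 1101 and 1753 TPM in controls versus 1739 and 1336 TPM in RankCre-ki HSCs. The defining erythroid marker Slc4a1 was listed at 0 in all libraries. Among the erythroid markers tested, 1 of 9 did not overlap between the groups, Hbb-bt, a globin gene (36.2, 124 and 109 TPM against 251 and 632 TPM). Of all tested genes, 18.8% lay above all controls and 3.71% below. RankCre-ki replicate 2 stood apart for Car1 (674 TPM), Klf1 (46.3 TPM) and Ermap (64.0 TPM), against at most 20.7, 1.73 and 0.514 TPM in the other 4 libraries. The log2 difference of Gpx1 was 0.57 without that library. The sums were 176 to 428 and 316 to 416 TPM for granulocyte markers, with Elane, Ctsg, Lcn2, Retnlg and Cebpe at 0 throughout, and 7.68 to 54.6 and 41.0 to 61.9 TPM for monocyte and macrophage markers, with Adgre1 and C1qc at 0. They were 83.0 to 227 and 177 to 183 TPM for megakaryocyte, 38.1 to 158 and 31.6 to 69.6 TPM for B cell, 3.24 to 47.1 and 31.8 to 46.9 TPM for T and NK cell, and 53.7 to 95.4 and 55.0 to 81.3 TPM for stromal and endothelial markers. Both RankCre-ki libraries lay above all controls for 1 of 4 tested granulocyte markers and 1 of 4 tested monocyte and macrophage markers. The same held for 1 of 3 tested T and NK cell markers, against 18.8% of all tested genes. S100a8 was at most 0.0677 TPM in controls, compared with 8.31 and 12.9 TPM, and Klrb1c at most 0.0516 TPM, compared with 4.40 and 12.8 TPM. Csf1r, the floxed gene, was at most 2.39 TPM in controls, compared with 17.6 and 6.46 TPM. In limma the adjusted p was 0.521 for S100a8 and Klrb1c and 0.706 for Csf1r. These genes met the filter of 1 TPM in 2 libraries only with the RankCre-ki values, where they are high. The part of other cells in the differences of the members was not tested.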

How the data were processed

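RNA was measured in 5 libraries of sorted HSCs, 3 wild-type and 2 RankCre-ki, grouped by their titles. The authors deposited TPM per gene, a length-corrected share that sums to 1e+06 in each library. Per the labels, build mm10, bcl2fastq 2.20.0 and featureCounts 2.0.1 were used, and the study's methods align with gsnap. The software that made the TPM is not given in the sources used here. Of 55427 rows, 92 spike-in rows (all at 0) were dropped. Some values (179) are above 0 but far below the worth of a whole fragment. TPM keeps no depth, so the depth is unknown and only replicate spread measures precision.

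Differences of log2(TPM + 1), which understate low genes, were fitted with limma 3.58.1 in R 4.3.3 (lmFit, eBayes with trend, two-sided, no covariate) on the 13981 genes that reached 1 TPM in 2 or more libraries, with Benjamini-Hochberg adjustment over all of them. The fit was tested on simulated data. Positions come from GENCODE M21 (99.7% of gene identifiers found), promoter windows from RefSeq. Members and lists were chosen with earlier results of these data known. Named list genes are the 2 of lowest p per list and direction, if their groups do not overlap, and others named were chosen after their values were seen. The alternatives were another pseudocount, 2 other filters, 3 scalings, blocks for replicate number or name series, no trend, no limit on the fold change, and each library left out. The cause of library differences was not tested. No correlation across libraries is given, because 5 are too few.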

Additional observations from a re-analysis of the deposited data

How the results depend on the processing

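No member was called under any of the 15 alternatives. Over all genes 0 were called, except 1 with the replicate block, 17 without RankCre-ki replicate 1 and 8 without RankCre-ki replicate 2, fits in which the lone RankCre-ki library is assumed to vary like the wild-type ones. Members at an unadjusted p under 0.05 numbered 0, but 1 without the trend (Keap1) and 0 to 2 when a library was left out (Nfe2l2 and Txnip without wild-type replicate 1). Members above all controls numbered 3, but 1 after median-ratio scaling and 3 to 6 with a library left out (6 without RankCre-ki replicate 2). The share of all genes moved likewise, from 18.8% to 12.2% and 34.8%. Those below numbered 1, but 2 after median-ratio scaling (Foxo1 and Sod1) and 0 with a filter of 5 TPM, which removes Foxo1. The share of all genes below was 3.71% as deposited, 8.88% after median-ratio scaling and 4.71% with that filter.

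Keap1 (1.39 to 2.59), Nfe2l2 (0.70 to 1.48) and Foxo1 (-2.73 to -0.63) kept their direction in every alternative that gave a value. After median-ratio scaling the difference was -0.19 for Sod2, -0.14 for Cat, -0.0084 for Gpx1 and -0.0316 for Txnip, and after quantile normalization it was -0.20 for Foxo3. Prdx1 was at 0.20 with the replicate block and 0.16 with the name series as a block. With each library left out, Prdx1 ran from -0.83 to 0.62, Foxo3 from -0.20 to 1.47, Sod1 from -0.56 to 0.17, Sod2 from -0.25 to 0.87 and Cat from -0.0360 to 0.77. The cause of these turns was not tested, other than by the scaling or the library named. Replicate numbers share only a number, since across genes the deviations from the group means had a correlation of -0.38 for number 1 and -0.20 for number 2.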

Other observations

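Other enzymes of the pentose phosphate pathway were looked up after the values of G6pdx, Pgd, Taldo1 and Tkt were seen. Pgls, which follows G6pdx in the pathway, was at 167, 32.4 and 53.5 TPM in controls versus 122 and 173 TPM in RankCre-ki HSCs, and the groups overlapped. Rpia (0.940, 8.90 and 9.74 against 3.01 and 10.9 TPM) and Rpe (8.89, 31.1 and 30.4 against 38.6 and 24.2 TPM) overlapped as well. H6pd, the enzyme of the endoplasmic reticulum, was at 0, 3.63 and 4.25 TPM against 5.28 and 5.23 TPM and overlapped after median-ratio scaling and quantile normalization. The adjusted p of these 4 genes was at least 0.890.

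Genes that were under 1 TPM in 1 library and at 5 TPM or more in all 4 others were counted for each library. There were 747 in wild-type replicate 1, 349 in replicate 2 and 59 in replicate 3, and 5 and 37 in RankCre-ki replicates 1 and 2. In wild-type replicate 1 they included Akt1, Arrdc1, Btrc, Cul3, Glrx5, Gsr, Mafg and Slc2a1 of the members and pathway lists, and in wild-type replicate 2 they included Foxo3, Dpp3, Gss, Mafk, Mlx, Pgd and Tsc2. In the other 3 libraries there were 0 of these genes. The log2 differences of Foxo3, Dpp3, Pgd and Arrdc1 between the groups therefore each rest in part on a single low control library.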
